A study of Mus musculus with 2 samples.

Results

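The cells described here were the T cells found among CD45+CD11b+ cells of the hind paws of mice with arthritis. They were chosen by transcripts alone. A cell counted as a T cell if at least 2 of *Cd3e*, *Cd3d*, *Cd3g* (chains of the CD3 complex) and *Bcl11b* (a T lineage transcription factor) had a unique molecular identifier (UMI, 1 captured transcript), if fewer than 3 of *Nkg7*, *Gzma*, *Ccl5*, *Ncr1*, *Klrk1* and *Prf1* had one, and if *C1qa*, *C1qb* and *C1qc* together had fewer than 10. The rule was applied to cells that had 500 or more genes and no more than 10% of their UMIs from mitochondrial genes. It found 123 T cells among 5696 cells of the β-glucan library (2.16%, exact 95% interval 1.80 to 2.57) and 122 among 4553 cells of the PBS library (2.68%, 2.23 to 3.19), 245 of 10249 cells in all. The 13 genes of the rule are not results here.

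Wild-type C57BL/6 mice, 7 to 10 weeks old, received 1 mg β-glucan intraperitoneally or PBS alone 7 days before arthritis was induced, and the cells were sorted at day 17. Both groups were arthritic, so there was no group without arthritis. For this experiment the study names K/BxN-STA, a serum transfer arthritis in which serum of arthritic mice is passed on, whereas the treatment text of the samples describes arthritis induced by antibodies and lipopolysaccharide. The methods name a pair of β-glucan preparations, from *Trametes versicolor* and from *S. cerevisiae*, without saying which was used here. Cells of 4 mice per group formed 1 library per group, and since the mouse of a cell is not recorded, each group was 1 sample. Differences between the libraries therefore have no replicate check, and all intervals cover counting error only.

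T cells recognise antigen through a receptor of paired α and β or γ and δ chains, which signals through the CD3 chains and kinases of the Src family. IL-23, which acts through the receptor encoded by *Il23r*, maintains T cells that release IL-17, among them innate-like γδ T cells that reside in barrier tissues and joints. Regulatory T cells carry the transcription factor FOXP3, and type 2 T cells depend on GATA3 and release IL-4, IL-5 and IL-13. Activated T cells are also a source of RANKL (*Tnfsf11*), the cytokine that drives the formation of osteoclasts.

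The median β-glucan T cell had 7613 UMIs and 2740 genes (range 1503 to 51872 UMIs), and the median PBS T cell 9163.5 UMIs and 3159.5 genes (3894 to 54103). Summed over cells, this gave 1144309 and 1351409 UMIs. The PBS cells were thus the deeper ones, and shares of cells with a UMI are given a second time below, where they matter, after each cell was thinned to 3000 UMIs, which left 120 and 122 cells. The libraries shared 7 barcodes, none of which was a T cell. Near the limits of the rule, 14 β-glucan and 6 PBS cells had 2 of the T lineage genes, whereas 29 and 33 cells outside had 1. At the cytotoxic limit, 17 and 24 T cells had 2 of those genes, and 4 and 6 cells just outside had 3. Of the T cells, 58 and 65 had no C1q UMI and the highest had 7 and 9. The C1q limit alone kept out 44 β-glucan and 18 PBS cells. The lowest C1q count among them was 15 with β-glucan and 10 with PBS.

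The working name of these cells was T cells with *Il23r* and *Icos*, and the data went against it in part. A UMI of *Il23r* or of *Icos*, a costimulatory receptor of activated T cells, was found in 89 β-glucan T cells (72.4%) and in 94 PBS T cells (77.0%). Both together were found in 38 (30.9%, 22.9 to 39.9) and 33 (27.0%, 19.4 to 35.8). The cells are therefore called T cells below, in the sense of the rule, and the subset with *Il23r* is named as such. A constant gene of the α or δ chain (*Trac* or *Trdc*) was detected in 108 and 107 of them, and both genes together in 6 and 4. Some cells with neither had *Il1rl1* and *Gata3*, such as a PBS cell with 12 and 15 UMIs of these and no *Cd3e* UMI. Genes listed for innate lymphoid cells summed to 4058 and 3419 CPM in the T cells, against 192 and 178 CPM in C1q-high cells. Of these genes, *Il7r* was also found in 25 of 27 β-glucan and 23 of 27 PBS cells with *Foxp3*, all of which had *Trac*. The sum thus cannot tell innate lymphoid cells from T cells. Whether the cells with neither constant gene were T cells was not tested.

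*Il23r* (ENSMUSG00000049093, GRCm39 chromosome 6, 67391313 to 67468888) was detected in 50 of 123 β-glucan T cells (40.7%, 31.9 to 49.9) and in 42 of 122 PBS T cells (34.4%, 26.1 to 43.6). Its level, as CPM (UMIs of the gene per 1000000 UMIs, both summed over the T cells), was 382 and 369. Among C1q-high cells, the cells with at least 10 C1q UMIs that made up most of each library, 0.300% and 0.0948% had an *Il23r* UMI, and no B cell did. *Icos* (chromosome 1, 61017086 to 61039479) was found in 62.6% and 69.7% of T cells, against 2.24% and 2.09% of C1q-high cells. *Cxcr6*, a chemokine receptor of tissue-resident lymphocytes, was found in 52.8% (43.6 to 61.9) and 65.6% (56.4 to 73.9). *Il23r* and *Icos* overlap other genes on their strand in the annotation, so their counts are uncertain to that extent.

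**Figure D1:**
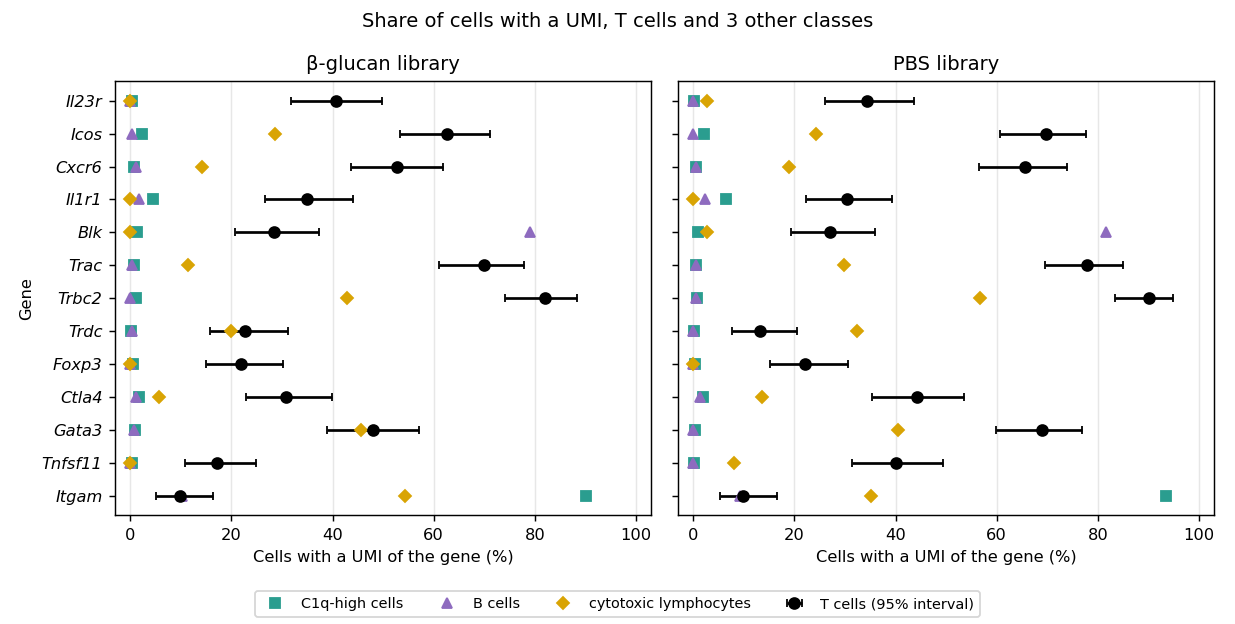
Share of cells (%, x axis) with a UMI of each gene (y axis) in the T cells (black, exact 95% interval), cytotoxic lymphocytes, B cells and C1q-high cells of the β-glucan library (left) and the PBS library (right). *Il23r* was found in 40.7% and 34.4% of T cells and in under 1% of C1q-high cells, whereas *Itgam* was found in 9.76% and 9.84% of T cells and in 90.1% and 93.4% of C1q-high cells.

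Genes outside the rule that set the T cells apart from all other cells were led by *Il23r*, whose CPM was 259 times that of the other cells with β-glucan and 1023 times with PBS. *Trdc* and *Scart1* (a scavenger receptor of γδ T cells) came next by the lower of both ratios, before *Cxcr6*, *Trac*, *Nebl* and *Tnfsf11* (160 and 323 times). The other genes of the first 20 included the T cell receptor signalling genes *Themis*, *Zap70*, *Cd6*, *Cd247*, *Cd5* and *Skap1*, the IL-2 receptor chain *Il2ra*, and the T cell transcription factors *Tox* and *Tcf7*. Of 4588 genes with at least 50 CPM, 296 (6.45%) were at least 4-fold higher in T cells than in C1q-high cells in both libraries. The genes of T cell receptor signalling summed to 6074 and 5660 CPM in T cells, against 190 and 149 CPM in C1q-high cells and 4852 and 4983 CPM in cytotoxic lymphocytes.

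CD11b, the protein of *Itgam*, was a criterion of the sort, and T cells are known mostly to lack it. *Itgam* had a UMI in 12 of 123 β-glucan T cells (9.76%, 5.14 to 16.4) and in 12 of 122 PBS T cells (9.84%, 5.19 to 16.6). *Ptprc*, which encodes CD45, had one in 99.2% and 100% of them. The gate can set the number and the make-up of the T cells in both libraries, and its part was not tested.

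**Figure D2:**
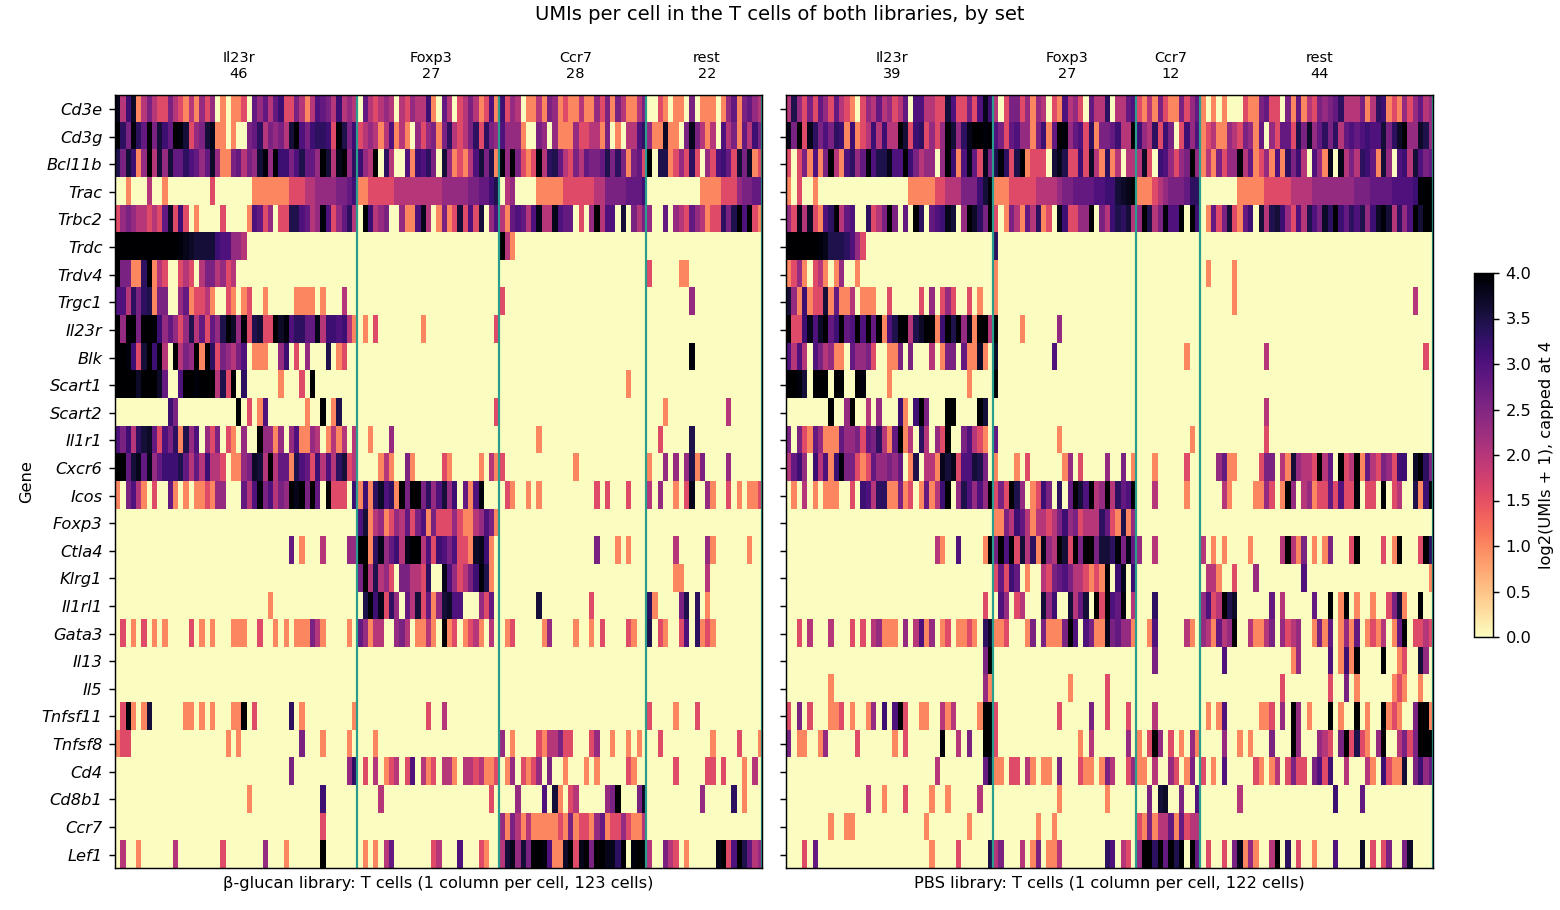
UMIs per cell as log2(UMIs + 1), capped at 4 (colour), of 28 genes (y axis) in each T cell (x axis, 1 column per cell) of the β-glucan library (left, 123 cells) and the PBS library (right, 122 cells), ordered by set. *Trdc* filled the left part of the *Il23r* set with few *Trac* UMIs, and *Il13* UMIs were seen in the PBS panel, mostly in the set named rest.

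To describe how the T cells varied among themselves, they were split by genes with few shared cells, chosen after the values had been seen. The sets were cells with an *Il23r* UMI and no *Foxp3* UMI, cells with a *Foxp3* UMI, cells with neither that had a UMI of *Ccr7* (a homing receptor of recirculating T cells), and the rest. The *Il23r* set held 46 β-glucan cells (37.4%, 28.8 to 46.6) and 39 PBS cells (32.0%, 23.8 to 41.0). The *Foxp3* set held 27 cells in each library (22.0% and 22.1%). The *Ccr7* set held 28 β-glucan cells (22.8%, 15.7 to 31.2) and 12 PBS cells (9.84%, 5.19 to 16.6), and the rest held 22 (17.9%, 11.6 to 25.8) and 44 (36.1%, 27.6 to 45.3). For this last set alone the counting intervals of the libraries did not overlap. In thinned cells the rest held 40.0% (β-glucan, 31.2 to 49.3) and 50.8% (PBS, 41.6 to 60.0), and these intervals overlapped. A cell without a captured *Il23r*, *Foxp3* or *Ccr7* transcript falls into the rest, and the median depth of the rest was 6928.5 UMIs in the β-glucan and 8722 in the PBS library.

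**Figure D3:**
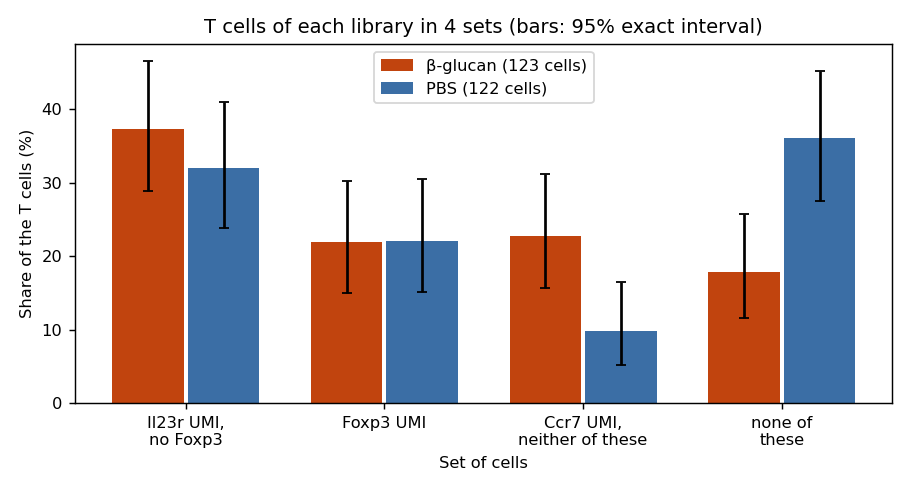
Share of the T cells (%, y axis) in each of 4 sets (x axis) in the β-glucan library (123 cells) and the PBS library (122 cells), with exact 95% intervals. The *Foxp3* set took 22.0% and 22.1%, and the rest took 17.9% and 36.1%.

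Genes linked to IL-17-producing T cells were compared between T cells with and without *Il23r*. Among the 50 β-glucan and 42 PBS cells with an *Il23r* UMI, *Maf*, a transcription factor of IL-17-producing T cells, was detected in all 50 and all 42, against 36 of 73 and 56 of 80 T cells without *Il23r*. *Il1r1*, the signalling receptor for IL-1, was at 396 CPM in β-glucan cells with *Il23r* and at 26.5 CPM in those without, and at 340 and 3.64 CPM in PBS cells. *Ccr6*, a chemokine receptor of IL-17-producing T cells, was found in 26 and 22 cells with *Il23r*, and in 4 and 11 without. *Cxcr6* was found in 46 of 50 and 36 of 42 cells with *Il23r*, and in 19 of 73 and 44 of 80 without. The cells with *Il23r* were also the deeper ones, with a median of 8244.5 against 7105 UMIs in the β-glucan library and of 11377.5 against 8601.5 in the PBS library. After thinning, *Il1r1* had a UMI in 57.1% of cells with and 1.41% of cells without *Il23r* in the β-glucan library, and in 50.0% and 1.25% in the PBS library.

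IL-17 transcripts themselves were found in few cells. *Il17a* had 70 UMIs in 9 β-glucan T cells (7.32%, 3.40 to 13.4) and 63 UMIs in 7 PBS T cells (5.74%, 2.34 to 11.5). A single cell held 55.7% and 57.1% of these UMIs. Of the cells with *Il17a*, 7 and 5 had *Il23r*, but the 2 without it in each library held 40 and 39 of the UMIs. *Il17f* had 3 UMIs in 2 cells and 30 UMIs in 5 cells. *Il22* had a UMI in 1 PBS T cell and in 0 of 123 β-glucan T cells. By the limit of 3 counts, a count of 0 allows a share of cells with a UMI of up to 2.44%, and it sets no limit on cells that express the gene.

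Start-site sequence of these genes is shown because *Rora*, which encodes the nuclear receptor RORα, was found in all 50 β-glucan and in 40 of the 42 PBS cells with *Il23r*, and RORα is known to bind ROR elements. It was also found in 42 of 73 and 66 of 80 T cells without *Il23r*. The core letters AGGTCA were searched on both strands (the reverse complement is TGACCT) from 250 bases before to 50 bases after the start of each gene in RefSeq (GRCm38.p6), where 5336 of 32817 such windows (16.3%) hold them. *Il23r*, *Il17a* and *Il17f* each have a window in that table with a match, printed here 5′ to 3′ on the strand of the gene, with the core in capitals. The 2 windows of *Il1r1*, also high in these cells, held no match, and those of *Il1rl1*, low in these cells, held 1. A match is a description of the sequence and no evidence of binding. *Il23r* has a further match 229 bases before its start, which is not printed. The match shown begins 66 bases before the start of *Il23r* (minus strand, chr6:67491889-67491948), 120 bases before that of *Il17a* (plus strand, chr1:20730758-20730817) and 58 bases before that of *Il17f* (minus strand, chr1:20784296-20784355).
Il23r: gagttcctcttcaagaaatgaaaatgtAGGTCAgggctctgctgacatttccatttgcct
Il17a: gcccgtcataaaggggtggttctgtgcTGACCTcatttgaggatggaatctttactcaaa
Il17f: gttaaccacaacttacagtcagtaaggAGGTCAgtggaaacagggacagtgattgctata

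Among genes with at least 100 CPM and a UMI in at least 20% of the cells with *Il23r* in each library, the highest ratios of CPM with over without *Il23r*, by the lower of both libraries, included, in order, *Scart1*, *Abi3bp*, *Trpm6*, *Clnk*, *Trdc*, *Scart2*, *Zfp462*, *Kcnc1*, *Pde5a*, *Trgc1*, *Il1r1*, *Blk*, *F2r* and *St3gal6*. *Abi3bp*, an extracellular matrix protein, was at 284 CPM with *Il23r* and 1.47 CPM without in the β-glucan library, and at 169 CPM and 0 UMIs in the PBS library. *Kcnc1*, a potassium channel, was found in 23 of 50 and 31 of 42 cells with *Il23r*, against 3 of 73 and 1 of 80 without. On the other side stood *Il1rl1*, the receptor for IL-33, at 45.2 against 271 CPM with β-glucan and at 9.49 against 351 CPM with PBS. *Lef1*, a transcription factor of naive T cells, was at 77.4 against 684 CPM and at 56.9 against 431 CPM. The order came from the same cells as the split and is a description.

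Cells with *Il23r* were divided by the δ and α constant genes. *Trdc* (chromosome 14, 54380308 to 54386325) was found in 25 of the 50 β-glucan and 16 of the 42 PBS cells, 4 of which in each library also had *Trac*. *Trac* without *Trdc* was found in 24 and 18 cells, and neither gene in 1 and 8. In the other direction, 25 of the 28 β-glucan and all 16 PBS T cells with *Trdc* had *Il23r*. *Trdc* of the T cells was thus found mostly with *Il23r*, whereas *Il23r* was found about as often with *Trac* as with *Trdc*. The cells with *Trdc* had a median of 6903 and 8871 UMIs, and those with *Trac* alone of 9693 and 13633.5.

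*Il23r* cells with *Trdc* and those with *Trac* alone differed in the proximal kinase of the receptor. *Lck* (chromosome 4, 129442137 to 129467434), the Src family kinase that phosphorylates the CD3 chains, had a UMI in 0 of 25 β-glucan and 1 of 16 PBS cells with *Trdc*. It had one in 23 of 24 and 17 of 18 cells with *Trac* alone. *Blk*, another kinase of that family, went the other way, with 24 of 25 and 14 of 16 *Trdc* cells against 10 of 24 and 10 of 18 *Trac* cells. At 3000 UMIs per cell, *Lck* was found in none of the thinned *Trdc* cells of either library and in 78.3% and 50.0% of the thinned *Trac* cells. *Cd247* (the CD3 ζ chain) and *Zap70*, which act next to or after *Lck*, were found in both kinds of cell, with *Cd247* in 25 of 25 and 16 of 16 *Trdc* cells and in 20 of 24 and 16 of 18 *Trac* cells.

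Other receptors and adaptors followed the same split. *Themis*, a scaffold of receptor signalling, was found in 1 of 25 and 0 of 16 *Trdc* cells and in 12 of 24 and 12 of 18 *Trac* cells. *Cd28*, the main costimulatory receptor, was found in 0 and 2 *Trdc* cells and in 13 and 11 *Trac* cells, and *Cd2*, an adhesion receptor, in 5 and 2 against 16 and 15. *Ccr6* was found in 8 and 3 *Trdc* cells and in 18 and 13 *Trac* cells. On the *Trdc* side, *Sox13*, a transcription factor of IL-17-producing γδ T cells, was found in 22 and 11 against 0 and 3 cells, *Scart1* in 22 and 12 against 3 and 1, and *Clnk*, an adaptor of immune receptor signalling, in 22 and 12 against 7 and 2. *Trdv4*, a variable gene of the δ chain, was found in 20 and 11 *Trdc* cells and in 0 *Trac* cells of both libraries, and *Trgv6*, a variable gene of the γ chain, in 10 and 4 against 1 and 0. Other genes were found on both sides. *Il17re*, a receptor chain of the IL-17 family, was found in 10 of 25 and 5 of 16 *Trdc* cells and in 9 of 24 and 7 of 18 *Trac* cells, *Maf* in all cells of both kinds, and *Zbtb16*, the transcription factor PLZF of innate-like T cells, in 25 and 15 against 17 and 13. β chain constant transcripts were found in *Trdc* cells too, *Trbc1* in 18 and 12 of them and *Trbc2* in 16 and 14. Reads can be shared between these near-identical genes, so their separate counts are uncertain to that extent. The source of these transcripts in *Trdc* cells was not tested.

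**Figure D4:**
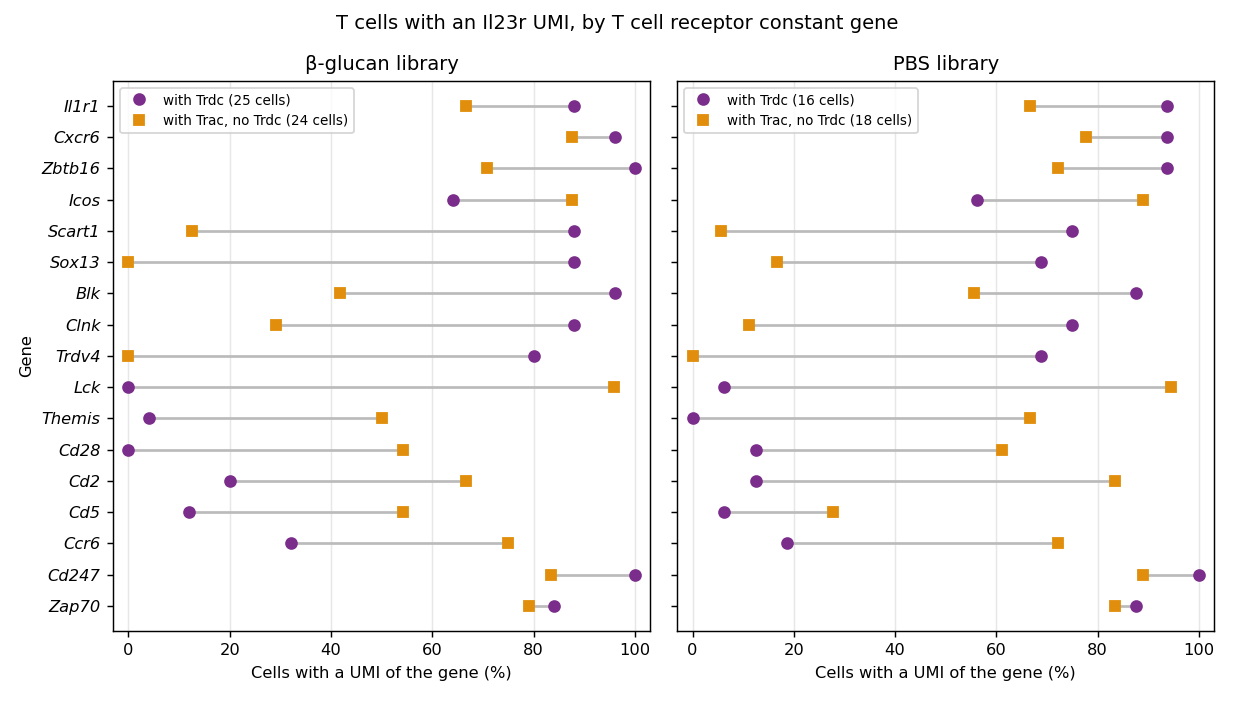
Share of cells (%, x axis) with a UMI of each gene (y axis) among T cells with *Il23r*, split into cells with *Trdc* (25 and 16) and cells with *Trac* and no *Trdc* (24 and 18), in the β-glucan library (left) and the PBS library (right). *Lck* stood at 0% and 6.25% of *Trdc* cells and at 95.8% and 94.4% of *Trac* cells, whereas *Cd247* and *Zap70* were high in both.

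The *Foxp3* set had as many cells in one library as in the other. *Foxp3* (chromosome X, 7439883 to 7461484) was at 83.9 CPM in the β-glucan and 77.7 CPM in the PBS T cells, a log2 ratio of 0.11 (counting interval -0.30 to 0.52). Of the 27 cells in each library, *Ctla4*, an inhibitory receptor of regulatory T cells, was found in 26 and 27, *Ikzf2* (the transcription factor Helios) in 25 and 27, *Il2ra* in 26 and 25 and *Trac* in all. *Klrg1*, an inhibitory receptor of differentiated lymphocytes, was found in 23 and 22 of them, *Il1rl1* in 21 and 18, and *Gata3* in 20 and 22. *Areg*, which encodes the tissue repair factor amphiregulin, was found in 6 and 10. *Cd4* was found in 20 and 17 cells and *Il13* in 0 of both. These 27 cells per library leave wide intervals, for *Areg* from 8.62% to 42.3% with β-glucan and from 19.4% to 57.6% with PBS.

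In the *Ccr7* set, genes of recirculating cells were found in most cells. *Lef1* was found in 27 of 28 and 11 of 12 cells, *Klf2* (a transcription factor that keeps T cells recirculating) in 27 and 12, *Tcf7* in 28 and 10, and *S1pr1*, the receptor for egress from tissue, in 24 and 10. *Cd8a* or *Cd8b1* was found in 12 and 5 of these cells and *Cd4* in 12 and 7. *Cxcr6* was found in 2 and 2, and *Cd44*, a receptor of experienced T cells, in 11 and 5. The share of this set was 22.8% with β-glucan and 9.84% with PBS, and 10.8% (5.90 to 17.8) and 4.92% (1.83 to 10.4) in thinned cells, with overlapping intervals each time. Macrophage genes summed to 2559 CPM in the β-glucan and 1249 CPM in the PBS cells of this set, with *Lyz2* at 1456 and 186 CPM, and 1 cell held 33.5% and 81.1% of these UMIs. They summed to 1451 and 4346 CPM in the *Foxp3* set, 797 and 357 CPM in the *Il23r* set and 914 and 1797 CPM in the rest. Their part in the results of the sets was not tested.

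Shares of several genes in the rest differed between the libraries, counted without thinning and with the PBS cells the deeper ones by median. Of the 44 PBS cells, 35 had *Gata3*, 34 *Cxcr6*, 37 *Trac*, 27 *Cd4* and 29 *Cd69* (an early activation and residence marker). Of the 22 β-glucan cells, 9 had *Gata3*, 8 *Cxcr6*, 12 *Trac*, 6 *Cd4* and 7 *Cd69*. *Ctla4* was found in 20 of 44 PBS and 4 of 22 β-glucan cells of the rest, *Pdcd1*, the inhibitory receptor PD-1, in 16 and 1, and the proliferation gene *Mki67* in 12 and 2. Of the genes named so far, only *Gata3* and *Cxcr6* had counting intervals that lay apart. They were 64.7% to 90.2% (PBS) and 20.7% to 63.6% (β-glucan) for *Gata3*, and 62.2% to 88.5% and 17.2% to 59.3% for *Cxcr6*. *Lef1* was found in 19 PBS and 14 β-glucan cells of the rest, so that it also held cells with genes of recirculating T cells. *Il13* was found in 13 PBS cells of the rest, in 2 of the *Il23r* set with 91 UMIs, 86 of them in 1 cell, and in 1 of the *Ccr7* set with 5 UMIs.

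Type 2 cytokine transcripts were seen in the PBS T cells. *Il13* (ENSMUSG00000020383, chromosome 11, 53522151 to 53525529) had 199 UMIs in 16 of 122 PBS T cells (13.1%, 7.69 to 20.4) and 0 UMIs in 123 β-glucan T cells, which by the limit of 3 counts allows a share of cells with a UMI of up to 2.44%. Against the floor of 3 UMIs over all β-glucan T cells, its level was at least 56.2-fold lower there, and at least 33.2-fold lower without the highest PBS cell. The 3 PBS cells with most *Il13* held 86, 33 and 23 of the 199 UMIs, and the median over the 16 cells was 5. *Il5* had 24 UMIs in 13 PBS cells and 0 with β-glucan, at least 6.77-fold lower. A UMI of *Il13* or *Il5* was found in 21 PBS T cells (17.2%, 11.0 to 25.1) and in 0 of 123 β-glucan T cells. *Il4* had 10 UMIs in 6 PBS cells and 1 UMI in 1 β-glucan cell. After thinning, *Il13* was found in 8.20% of PBS and 0% of β-glucan T cells. Among C1q-high cells *Il13* had a UMI in 0.190% with PBS and 0% with β-glucan, and among cytotoxic lymphocytes in 2.70% and 0%.

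The 16 PBS cells with *Il13* shared a set of genes, counted without thinning. Most of the 16 were deeper than the median PBS T cell (9163.5 UMIs), and the deepest had 54103 UMIs. All 16 had *Gata3*, *Tnfsf8*, *Cd44* and *Rora*, 15 had *Trac*, *Cxcr6* and *Il7r*, 14 had *Icos* and *Cd40lg*, and 13 had *Cd4*, *Tnfsf11* and *Ctla4*. *Il1rl1* was found in 10 of them, *Ccr8*, a chemokine receptor of type 2 and regulatory T cells, in 9, and *Il5* in 8. None had *Foxp3*, *Klrg1* or *Trdc*, 1 had *Ccr7* and 2 had *Il23r*. Of the other 106 PBS T cells, 33 had *Tnfsf8*, 36 *Tnfsf11*, 68 *Gata3*, 92 *Cd44* and 90 *Rora*. *Mki67*, a proliferation gene, was found in 7 of the 16 and 14 of the 106, and the macrophage gene *Lyz2* in 14 and 61. *Gata3* without a type 2 cytokine was therefore common, also in the β-glucan library, where 59 of 123 T cells had it.

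The start of *Il13* is shown because all cells with *Il13* had *Gata3* and GATA3 is known to bind GATA elements. The letters AGATAA, searched on both strands (TTATCT), are in 3669 of the 32817 RefSeq windows (11.2%). In *Il13* (GRCm38.p6, minus strand, chr11:53634751-53634810) they begin 81 bases before the start site and are in capitals. The window of *Il5* and the 2 of *Il4* in that table held no match.
Il13: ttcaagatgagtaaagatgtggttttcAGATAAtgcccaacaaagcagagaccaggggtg

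*Tnfsf11* (ENSMUSG00000022015, chromosome 14, 78514885 to 78545490), which encodes RANKL, was lower in the β-glucan T cells. It had 128 UMIs in 21 of 123 β-glucan T cells (17.1%, 10.9 to 24.9) and 491 UMIs in 49 of 122 PBS T cells (40.2%, 31.4 to 49.4), or 112 and 363 CPM. The log2 ratio of β-glucan over PBS was -1.70 (counting interval -1.99 to -1.42), but -0.76 when each cell had equal weight and -0.98 in thinned cells, both short of 2-fold. After thinning, 10.0% and 22.1% of the T cells had a UMI. In the β-glucan library 1 cell held 70 of the 128 UMIs (54.7%), and in the PBS library the highest cell held 94 (19.1%). The log2 ratio was -2.84 without that β-glucan cell, -1.45 without the highest PBS cell and -2.59 without both. Among C1q-high cells 0.254% and 0.221% had a *Tnfsf11* UMI, among cytotoxic lymphocytes 0% and 8.11%, and among B cells none did.

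The cells with *Tnfsf11* were mostly *Il23r* cells and cells of the rest. It was found in 16 of 46 β-glucan and 21 of 39 PBS cells of the *Il23r* set (34.8%, 21.4 to 50.2, and 53.8%, 37.2 to 69.9). In the rest it was found in 3 of 22 and 22 of 44 cells, in the *Foxp3* set in 2 and 5 of 27, and in the *Ccr7* set in 0 of 28 and 1 of 12. Of the 21 and 49 cells with *Tnfsf11*, 20 and 41 had *Cxcr6*, 14 and 40 had *Gata3*, and 0 and 4 had *Ccr7*. Within the *Il23r* cells it was found in 12 of 25 β-glucan and 8 of 16 PBS *Trdc* cells, and in 4 of 24 and 9 of 18 *Trac* cells.

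*Tnfsf8* (chromosome 4, 63749542 to 63779592), the ligand CD30L of activated T cells, had the lowest log2 ratio under the naming rule. It had 53 UMIs in 27 β-glucan T cells (22.0%) and 566 UMIs in 49 PBS T cells (40.2%), or 46.3 and 419 CPM, with a log2 ratio of -3.18 (-3.61 to -2.77). With equal weight per cell it was -2.90, without the highest PBS cell -2.72 and without the highest cell of both libraries -2.86. After thinning, 10.0% and 30.3% of T cells had a UMI. Without thinning, cells with a UMI had a median of 2 *Tnfsf8* UMIs with β-glucan and of 4 with PBS, where the T cells were deeper. The highest cells held 5 and 155. By set, it was at 32.6 and 326 CPM in the *Il23r* set, and at 21.6 and 156 CPM there without the highest cell of each library. In the rest it was at 38.6 and 510 CPM, and at 26.8 and 415 CPM without those cells. In the *Ccr7* set, where 14 of 28 and 8 of 12 cells had it, it was at 98.3 and 1214 CPM, but 1 PBS cell held 155 of the 170 PBS UMIs, and without the highest cell of each library the set was at 84.7 and 115 CPM.

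Across all genes, 66 of 4691 genes with at least 100 UMIs over both libraries were at least 2-fold higher in the β-glucan T cells (1.41%) and 64 were at least 2-fold lower (1.36%), and the median log2 ratio was 0.01. Whatever the size of the ratio, 2405 were higher and 2286 lower. Counts of list genes given below are to be set beside these values. Of the genes past 2-fold, 26 higher and 20 lower ones also were so with equal weight per cell, in thinned cells and without the highest cell of the library in which they were higher. In the list of cytokines and TNF family ligands, 9 of 20 genes had enough UMIs. Of these, 8 were lower with β-glucan, 5 of them past 2-fold, and none was higher past 2-fold. The median log2 ratio was -0.94 without *Il13*, which was counted as lower past 2-fold but had no β-glucan UMI and thus no finite ratio. *Lta*, which encodes lymphotoxin α, was at 6.12 and 88.8 CPM, with 85.0% of the PBS UMIs of *Lta* in 1 cell. *Cd40lg*, the B cell helper ligand, was listed with the costimulatory receptors and was at 38.5 and 92.5 CPM. Its log2 ratio was -1.27, and in thinned cells -0.81, short of 2-fold, but -1.09 in a second draw. *Tnf* was at 83.0 and 128 CPM and was found in 33.3% and 35.2% of T cells.

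Of the 7 regulatory T cell genes with enough UMIs (of 10), 3 were higher and 4 lower with β-glucan, and 1 was past 2-fold lower. Receptors of activation followed in part. Of 11 genes listed for costimulatory and inhibitory receptors with enough UMIs (of 14), the ligand gene *Cd40lg* among them, 8 were lower with β-glucan and 3 of these past 2-fold, against 1.36% of all genes. *Tnfrsf4*, the costimulatory receptor OX40, was at 86.5 and 192 CPM (log2 ratio -1.15) and *Pdcd1* at 25.3 and 55.5 CPM (-1.13), both short of 2-fold in thinned cells (-0.79 and -0.76), whereas *Icos* was at 412 and 381 CPM (0.11, -0.07 to 0.30). *Cd69* was found in 38.2% (29.6 to 47.4) and 63.1% (53.9 to 71.7) of T cells, and in 25.8% and 41.8% of thinned cells. Of 14 activation and immediate-early genes, 13 were lower with β-glucan, 1 of them past 2-fold, at a median of -0.52. All 4 type 2 genes with enough UMIs (of 9) were lower and 2 of them past 2-fold, against 1.36% of all genes. *Gata3* was at 128 and 226 CPM and was found in 48.0% (38.9 to 57.2) and 68.9% (59.8 to 76.9) of T cells.

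*Trdc* was at 394 CPM in β-glucan and 166 CPM in PBS T cells (log2 ratio 1.25, 1.02 to 1.49, and 0.97 in thinned cells) and was found in 28 (22.8%, 15.7 to 31.2) and 16 cells (13.1%, 7.69 to 20.4), with overlapping intervals. *Clnk* was at 308 and 50.3 CPM (2.62, 2.24 to 3.01), *Trdv4* at 83.9 and 17.0 CPM (2.30, 1.63 to 3.03), *Sox13* at 67.3 and 19.2 CPM (1.81) and *Blk* at 258 and 99.2 CPM (1.38). Of the 12 type 17 genes with enough UMIs (of 15), 8 were higher and 4 lower with β-glucan, and 3 were past 2-fold, all higher, at a median of 0.39. Of all genes, 1.41% were past 2-fold higher. *Scart1* was higher (371 and 179 CPM, 1.05), but short of 2-fold with equal weight per cell (0.79) and in thinned cells (0.97), and *Scart2*, its neighbour in the genome and a receptor of the same family, was lower (74.3 and 137 CPM, -0.88). *Il23r* itself had a log2 ratio of 0.05 (-0.14 to 0.24). It was 0.37 in thinned cells and 0.03 without the highest cell of both libraries.

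Genes of recirculating T cells were higher with β-glucan by less than 2-fold. All 7 with enough UMIs (of 9) were higher, none past 2-fold, at a median of 0.62, with *Lef1* at 438 and 285 CPM and *Satb1* at 369 and 212 CPM. *Igfbp4*, also on that list, was below the minimum with 56 and 33 UMIs. *Tox*, an HMG box transcription factor of T cells, was at 1506 CPM in β-glucan and 757 CPM in PBS T cells (log2 ratio 0.99), and was found in 76.7% and 62.3% of thinned T cells.

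Cell cycle genes were lower with β-glucan. All 6 with enough UMIs (of 8) were lower, 4 of them past 2-fold, at a median of -1.15. Of all genes, 1.36% were past 2-fold lower. *Mki67* was at 83.0 and 154 CPM, *Top2a*, a topoisomerase of dividing cells, at 51.6 and 138 CPM, and *Stmn1*, a microtubule regulator, at 59.4 and 217 CPM. Single cells moved *Mki67*, whose log2 ratio was -0.89 in all T cells and -2.49 without the highest β-glucan cell. It was -0.60 without the highest PBS cell and -2.20 without both. A UMI of *Mki67* or *Top2a* was found in 24 β-glucan (19.5%, 12.9 to 27.6) and 30 PBS T cells (24.6%, 17.2 to 33.2). Without those cells, which were left out after the values had been seen, 65 genes were past 2-fold higher and 22 lower, of 3471. *Tnfsf11* and *Tnfsf8* had log2 ratios of -1.22 and -2.91 in the cells that remained, and *Stmn1* of -0.43 in place of -1.87.

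**Figure D5:**
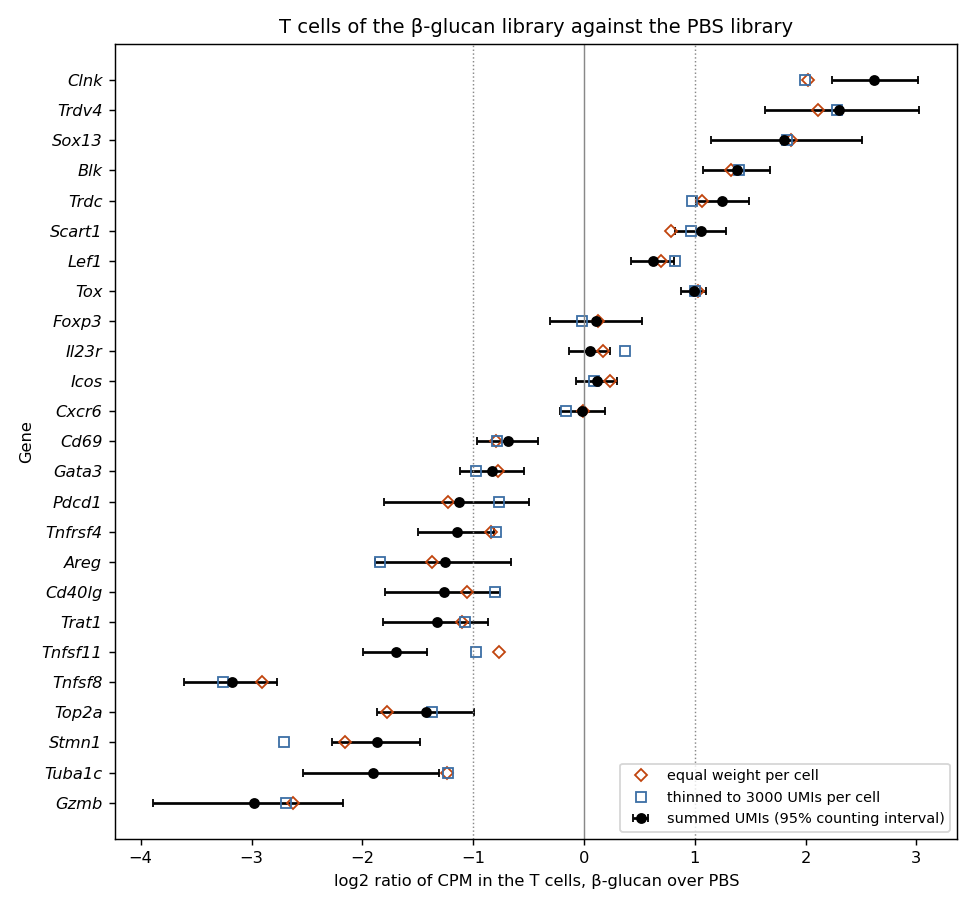
log2 ratio of CPM in the T cells, β-glucan over PBS (x axis), of 25 genes (y axis). Black points are summed UMIs with the 95% counting interval, diamonds give each cell equal weight and squares use cells thinned to 3000 UMIs, and dotted lines mark 2-fold. *Tnfsf8* stood at -3.18 and *Clnk* at 2.62, whereas *Foxp3*, *Il23r*, *Icos* and *Cxcr6* lay between -0.01 and 0.11.

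By size alone, the 8 highest log2 ratios under the naming rule were those of *Trf*, *Clnk*, *Trdv4*, *Cdh10*, *Ccdc88a*, *Mctp1*, *Tbxas1* and *Rnf150*. *Trf*, *Ccdc88a*, *Mctp1*, *Tbxas1* and *Rnf150* were found in 16, 15, 13, 13 and 17 of the 123 β-glucan T cells, and in 64.4% to 94.2% of the β-glucan C1q-high cells. *Ccdc88a*, at 1.99, was short of 2-fold with equal weight per cell (0.87) and without the cells high in class II genes (0.49). In thinned cells it was 0.83, also short of 2-fold, but 1.14 in a second draw. The 8 lowest were those of *Tnfsf8*, *Gzmb* (granzyme B), *Tuba1c*, *Stmn1*, *Tpi1*, *Cenpa*, *Bcl6* and *Apoe*. *Gzmb* had 14 UMIs in 6 β-glucan and 130 UMIs in 17 PBS T cells, and *Bcl6*, a transcription factor of follicular helper T cells, 20 UMIs in 15 and 81 UMIs in 21. Without cells with *Mki67* or *Top2a*, *Tuba1c*, *Cenpa* and *Bcl6* were short of 2-fold (-0.51, -0.41 and -0.69).

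Transcripts of other cell types moved with some of these results. Macrophage genes, the C1q genes of the rule included, summed to 1448 CPM in β-glucan and 1752 CPM in PBS T cells, led by *Lyz2*, against 34622 and 35170 CPM in C1q-high cells, and none of the 15 was at 0. Antigen-presenting cell genes summed to 6175 and 2343 CPM, led by *Cd74*, and all 5 with enough UMIs were past 2-fold higher with β-glucan, against 1.41% of all genes. A total of 20 UMIs or more of *H2-Aa*, *H2-Ab1*, *H2-Eb1* and *Cd74* was found in 9 β-glucan and 11 PBS T cells. Without these cells *Cd74* had a log2 ratio of -0.57 in place of 1.29 and *Apoe* of 0.52 in place of -1.73, whereas *Tnfsf11* and *Tnfsf8* were at -1.58 and -3.33. B cell genes summed to 79.5 and 347 CPM, led by *Ighm*, with 5 of 9 at 0 with β-glucan and 0 of 9 at 0 with PBS. Neutrophil genes summed to 343 and 11.8 CPM, led by *S100a9*, with 3 and 2 of 8 at 0, and 1 β-glucan cell held 97.8% of the *S100a8* UMIs. Stromal genes summed to 189 and 252 CPM, led by *Fn1*, and basophil and mast cell genes to 52.4 and 32.6 CPM, led by *Kit*. Cytotoxic genes summed to 426 and 508 CPM, with 3 and 4 of 11 at 0, and the rule itself limited them. The part of such cells or of free RNA in the values of single genes was not tested beyond these counts.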

How the data were processed

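The authors sorted CD45+CD11b+ cells, prepared 1 droplet 3′ library per group and counted UMIs with Cell Ranger 7.0.0 on GRCm39 with Ensembl 104. The deposited values were counts of UMIs per gene (32524 genes) and barcode, without normalization, and whether intronic reads were counted is not given in the sources used here. The submitters' processing notes list mm10 beside GRCm39. The libraries held 81611849 (β-glucan) and 73874602 (PBS) UMIs. The number of cells that the study gives per library equals the number of barcodes before the stated filter on genes and mitochondrial UMIs, which was applied here.

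Groups were taken from the sample labels. Members of the T cell class, the gene lists and the sets within the class were chosen with earlier results of these data known. UMIs were summed over the cells of a class and divided by their total to give CPM. Ratios of summed CPM have exact conditional binomial 95% intervals, CPM exact Poisson and shares exact Clopper-Pearson intervals, with a limit of 3 counts where a count was 0. With 1 library per group no test between groups was made. Genes were compared between libraries if they had at least 100 UMIs over both, and with C1q-high cells if they had at least 50 CPM in either class. Thinning drew 3000 UMIs per cell without replacement and left out shallower cells.

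Comparison classes were C1q-high cells (at least 10 C1q UMIs), B cells (at least 2 of 4 B lineage genes, fewer than 2 T lineage genes, C1q under 10) and cytotoxic lymphocytes (at least 3 of the 6 cytotoxic genes, C1q under 10). No doublet caller was run on the T cells. An alternative left out possible doublets, T cells with at least 3 UMIs of each of 2 or more genes of the B cell, neutrophil, stromal or basophil and mast cell lists (1 with β-glucan and 4 with PBS). Beside genes of the lists, the naming rules took the 20 highest ratios over other cells at 100 CPM or more. They also took the 8 highest and 8 lowest log2 ratios between libraries, among genes in at least 10% of cells where they were higher. The sign of these ratios had to be the same with equal weight per cell, in thinned cells and without the highest cell. Last came the 15 highest ratios of cells with over cells without *Il23r* (at least 100 CPM and 20% of cells). A few genes of the lists and naming rules are not reported here. Counts per set of cells beyond these rules were chosen after their values were seen.

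Positions came from GENCODE M39 on GRCm39, in which 31870 of the 32524 gene IDs (98.0%) were found, and start-site windows from RefSeq on GRCm38.p6. Analyses used scipy 1.17.1, numpy 2.4.6 and pandas 2.3.3 under Python 3.11.15, figures matplotlib 3.10.9, and TMM factors came from edgeR 4.0.16 in R 4.3.3. The steps were tested on simulated data first. Alternatives changed the cell filter, the limits of the rule, the scaling, the weight of each cell, the thinning and the minimum of UMIs.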

Additional observations from a re-analysis of the deposited data

Results flagged for a closer look

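Signal was also seen outside the cells analysed above. Among the barcodes left out by the cell filter, 6 of 1500 in the β-glucan library (0.400%, 0.147 to 0.869) and 11 of 1207 in the PBS library (0.911%, 0.456 to 1.63) met the rule for T cells, above the limit that a count of 0 allows. All of them exceeded the mitochondrial limit and 1 β-glucan barcode also fell below the gene limit, and their median depth was 1828 and 3066 UMIs. *Il23r* was found in 2 and 2 of these barcodes, *Icos* in 1 and 4, *Tnfsf11* in 0 and 3, and *Il13* in none.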

How the results depend on the processing

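No paired analysis was possible because each group is 1 library, and no library could be left out. The T cell share of the β-glucan library, 2.16%, was 1.79% with no filter on cells, and the other alternatives to the filter and the rule, with thinning and without possible doublets, left the share of either library within its counting interval. No alternative raised the C1q limit. Genes at least 2-fold higher with β-glucan numbered 66, and 134 in thinned cells, 134 at a minimum of 50 UMIs, 17 at 300 UMIs and 1108 at 1 UMI in each library. Genes at least 2-fold lower numbered 64, and 129, 162, 19 and 884 under the same settings, and 22 without cells with *Mki67* or *Top2a*, a setting added after the data were seen. The 296 genes 4-fold over C1q-high cells became 491 at 20 CPM and 173 at 100 CPM.

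Of the levels past 2-fold, 2 changed sign, both without the T cells high in class II genes (also added after the data were seen), *Apoe* at 0.52 and *Cd74* at -0.57, since few cells held these UMIs. Of 73 named genes, 10 changed sign in at least 1 alternative. Beside those 2 these were *Il23r*, *Cxcr6*, *Trbc1*, *Cd4*, *Il17a*, *Foxp3*, *Itgam* (0.91, and -0.98 in thinned cells) and *Lyz2* (-0.51, and 1.16 without cells with *Mki67* or *Top2a*), all short of 2-fold with all T cells counted. Over the 10 alternatives of filter, rule, scaling, weight and thinning, without possible doublets, and, added after the data were seen, without cells high in class II genes or with *Mki67* or *Top2a*, the log2 ratio of *Tnfsf8* lay between -3.34 and -2.90, that of *Tnfsf11* between -3.14 and -0.76, that of *Trdc* between 0.97 and 1.36, that of *Clnk* between 1.99 and 3.05 and that of *Il23r* between -0.32 and 0.37. Thinned values of sparse genes also moved with the random draw. A second draw gave 1.78 for *Clnk* in place of 1.99, -0.05 for *Il23r* in place of 0.37 and -0.96 for *Tnfsf11* in place of -0.98. It put past 2-fold *Trdc* (1.15 in place of 0.97), *Cd40lg* (-1.09 in place of -0.81) and *Ccdc88a* (1.14 in place of 0.83). For *Itgam* it gave 1.48 in place of -0.98. A gene with few UMIs in about 120 cells per library cannot be resolved at this depth, and differences between the libraries cannot be told apart from differences between the pooled mice or the preparations.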

Other observations

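The lists given here each held at most 1 gene past 2-fold. Of 15 cytokine receptor genes with enough UMIs (of 18), 10 were higher with β-glucan and 5 lower. Their median log2 ratio was 0.06 and 1 was past 2-fold. Of 9 genes of tissue residence and homing (of 12), 4 were higher and 5 lower and none was past 2-fold, led in level by *Cd44*. Of 4 interferon-stimulated genes (of 11), 1 was higher and 3 lower, at a median of -0.49 and with none past 2-fold, led by *Ly6a*. Only 2 of 7 type 1 genes had enough UMIs, and they stood at log2 ratios of -0.04 and 0.36. Of 16 genes of T cell receptor signalling, 7 were higher and 9 lower, at a median of -0.05, with 1 past 2-fold lower.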
